A study of Solanum pimpinellifolium with 60 samples.

Results

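The genes described here are the 150 genes whose transcripts stood highest in the wild-type floral and inflorescence meristems, relative to every other stage sampled. They were chosen from the wild-type libraries alone. Counts were expressed per 1000000 counts of a library (RPM), the 3 wild-type libraries of a stage were averaged, genes with an F&IM mean of at least 10 RPM were kept, and these were ranked by the F&IM mean plus 1 over the highest of the 4 other stage means plus 1. Of 34725 genes, 11822 reached the minimum, and 2898 of those had their highest stage mean in the F&IM. The first 150 had ratios of 1.42 to 8.73. Their high F&IM level in the wild type is therefore how they were found and is given as a description. Whether they kept that profile in plants carrying other alleles was measured in 45 libraries the ranking did not use.

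The study compared the near isogenic lines lc, fas and lc/fas with the wild type (WT) by 3′ Tag RNA-seq, which reads the 3′ end of polyadenylated transcripts. All 4 genotypes share the background of Solanum pimpinellifolium LA1589, a wild relative of tomato. The lc line carries an allele with SNPs downstream of SlWUS, the fas line carries an inversion that breaks the promoter of SlCLV3, and lc/fas carries both. Per the paper, lines with each locus were crossed during backcrossing, and all 4 genotypes were later selected from the same backcross population. Each NIL also keeps a cultivated segment around its locus, on chromosome 2 for lc and on chromosome 11 for fas. The stages, in developmental order, were the shoot apical meristem of the sympodium (SYM), the floral meristem sampled jointly with its inflorescence meristem (F&IM), and buds of 3 ages, given in days after floral initiation (2, 4 and 6 dpi), with 3 replicates in each of the 20 groups. Each library came from meristems or buds dissected by hand out of many pooled inflorescences of greenhouse plants 5 to 7 weeks old, so a library is an average over plants and over the cell types of the piece. A lower value cannot be told apart from fewer expressing cells. In units of 1000000 counts, library totals ran from 0.441 to 9.17 with a median of 4.71, and those of the F&IM from 2.90 to 7.84. The smallest library is fas 6 dpi replicate 3. All 150 genes passed the filter on low counts.

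A floral meristem is a small dome of dividing cells that first separates from the inflorescence meristem and then gives rise to sepals, petals, stamens and carpels before it stops. Its stem cells are kept by the homeodomain factor WUSCHEL and limited by the CLAVATA3 peptide, and its size sets how many organs, and so how many locules, a flower makes. In tomato the inflorescence is sympodial: each meristem ends in a flower, and the next meristem arises at its side. The rate at which a meristem acquires floral identity decides how branched the truss becomes. Gibberellin, cytokinin and auxin all act in this tissue, with cytokinin made close to the stem cells and auxin gathering where organs start.

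For 77 of the 150 genes the study's tables give an Arabidopsis homolog, and roles below are those known for that homolog in Arabidopsis unless tomato is named. A role could be written for 52 of them. Regulators of meristems and organs formed the largest group, with 21 genes. A further 10 belong to hormone synthesis, transport or response, 7 to the cell wall and surface, 5 to metabolism and 9 to signalling, transport and other processes. The remaining 98 genes had no homolog in those tables or none with a role given here. These groups were drawn up once the members were known, so their sizes are a description.

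Wild-type F&IM means of the 150 genes ran from 10.8 to 354 RPM with a median of 38.8 RPM, and 28 genes exceeded 100 RPM. The corresponding F&IM medians were 34.7 RPM in lc, 34.2 RPM in fas and 31.8 RPM in lc/fas. In the wild type the stage next to the F&IM in level was 2 dpi for 63 genes, the SYM for 60, 6 dpi for 19 and 4 dpi for 8. So most of these genes had a second-highest level in the tissue just before or just after the floral meristem in developmental time. The heat map of the 150 genes shows this fall on both sides of the F&IM in each of the 4 genotypes.

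**Figure D1:**
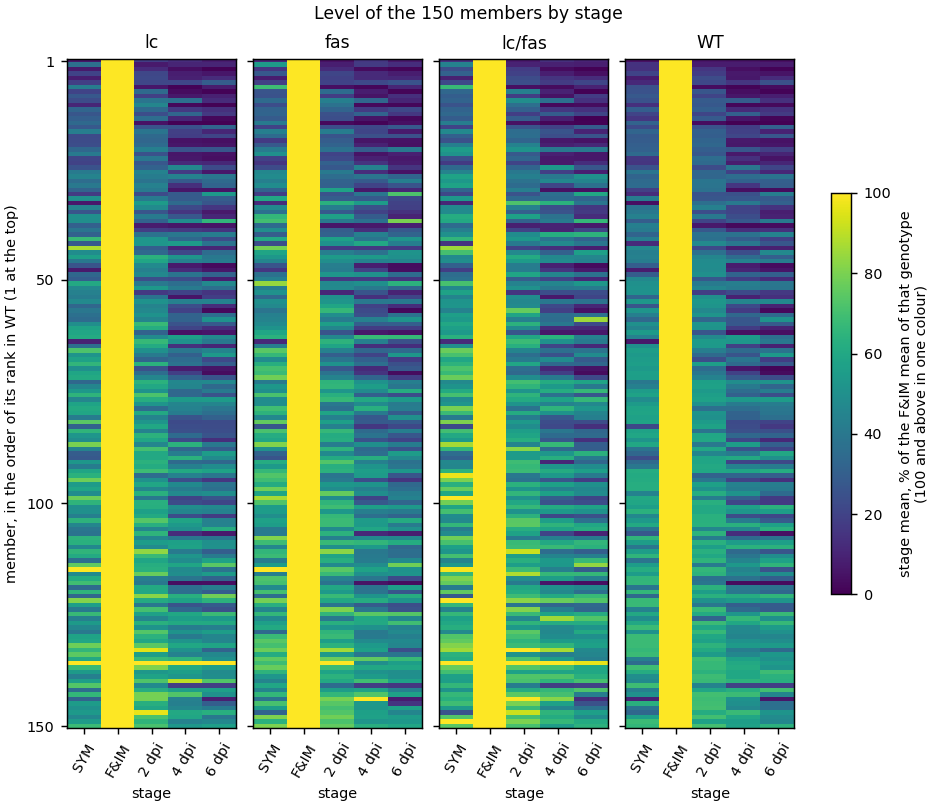
Each row is a member in the order of its wild-type rank, each column a stage, and colour gives the stage mean (3 libraries) as a percentage of the F&IM mean of the same genotype, so the F&IM column is 100 by construction. The F&IM was the highest stage for 148, 147 and 146 of the 150 rows in lc, fas and lc/fas; in WT it is the highest in all rows because the rows were chosen that way.

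The first 20 genes carried the sharpest profiles. Solyc06g007230, first in the ranking, is homologous to ATL63, a RING-type putative ubiquitin ligase. Its F&IM libraries had 10.7, 7.97 and 7.59 RPM in lc, 12.7, 11.8 and 9.35 RPM in fas, and 7.04, 8.53 and 10.8 RPM in lc/fas, against 13.3, 16.3 and 16.1 RPM in WT. No library of any other stage exceeded 2.60 RPM in any genotype, so its F&IM libraries overlapped with none of the others. Within lc the F&IM exceeded the SYM by 4.01 ± 0.55 on the log2 scale (SE; edgeR quasi-likelihood test, adjusted p = 3.74e-07). The 9 NIL libraries of the F&IM all lay below the 3 wild-type ones for this gene. The wild-type libraries gave the gene its rank, so a lower level in the NILs was favoured by the choice and is a description.

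Solyc02g077390, ranked next, is the tomato gene S (COMPOUND INFLORESCENCE), a homolog of the homeobox gene WOX9 that in tomato promotes the passage to floral identity and limits branching. In the F&IM it had 32.0, 36.0 and 21.4 RPM in lc, 31.5, 33.4 and 12.3 RPM in fas, and 35.4, 31.9 and 24.0 RPM in lc/fas, against 47.4, 51.7 and 23.2 RPM in WT. Replicate 3 was the lowest F&IM library in all 4 genotypes. In the SYM it had 8.90, 12.8 and 11.0 RPM in lc, 11.7, 15.1 and 15.2 RPM in fas and 15.4, 8.10 and 17.1 RPM in lc/fas, against 9.01, 6.12 and 2.72 RPM in WT. From 2 dpi on, no NIL library exceeded 5.58 RPM. On the log2 scale the F&IM was above the SYM by 1.44 ± 0.32 within lc, by 0.90 ± 0.30 within fas and by 1.16 ± 0.30 within lc/fas (SE; edgeR quasi-likelihood test, adjusted p = 0.0014, 0.0741 and 0.0108). In fas the third F&IM library, at 12.3 RPM, overlapped with the SYM libraries.

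Solyc02g070430 is homologous to GA2OX2, an enzyme that inactivates gibberellin. Its F&IM libraries had 80.2, 92.3 and 79.3 RPM in lc, 76.8, 77.9 and 93.2 RPM in fas and 79.4, 56.8 and 86.7 RPM in lc/fas, against 95.2, 77.0 and 88.4 RPM in WT. No library of another stage exceeded 25.3 RPM, and the SYM libraries of the NILs held 3.98 to 10.01 RPM. The F&IM lay above the SYM by 3.53 ± 0.27, 3.68 ± 0.27 and 3.44 ± 0.27 on the log2 scale (SE) within the lc, fas and lc/fas lines. It lay above 2 dpi, the next stage in WT, by 2.15 ± 0.24, 2.33 ± 0.24 and 2.09 ± 0.24 in the same order. A gene of gibberellin synthesis was also among the 150. Solyc06g035530, homologous to GA20OX1, had F&IM means of 14.6, 11.5 and 10.8 RPM in lc, fas and lc/fas, against 17.7 RPM in WT, but stayed at 7.33 to 7.97 RPM at 2 dpi in the NILs. Its F&IM level exceeded the SYM in all 3 NILs, and the difference from 2 dpi was not called in any of them (edgeR quasi-likelihood test, adjusted p = 0.106, 0.300 and 0.583).

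Solyc01g067540, the homolog of the AP2-type factor PUCHI, which in Arabidopsis represses bract growth and promotes floral identity, was nearly restricted to the SYM and F&IM. The F&IM held 33.2, 33.8 and 25.5 RPM in lc, 39.0, 36.6 and 29.2 RPM in fas and 27.9, 22.9 and 34.2 RPM in lc/fas, against 41.5, 44.1 and 34.2 RPM in WT. The SYM held 9.27 to 11.9 RPM in lc, 12.5 to 16.9 RPM in fas and 8.99 to 15.9 RPM in lc/fas, against 8.65 to 14.7 RPM in WT. No count was found at 6 dpi in the 3 WT libraries, and no 6 dpi library of a NIL exceeded 2.27 RPM, which in the smallest library is a single count. The auxin influx carrier homolog AUX1, Solyc10g076790, declined more evenly. It averaged 68.6 RPM in lc, 76.2 RPM in fas and 73.8 RPM in lc/fas in the F&IM, against 82.2 RPM in WT. By 6 dpi the means were 7.396, 5.65 and 7.42 RPM in the NILs and 7.78 RPM in WT.

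**Figure D2:**
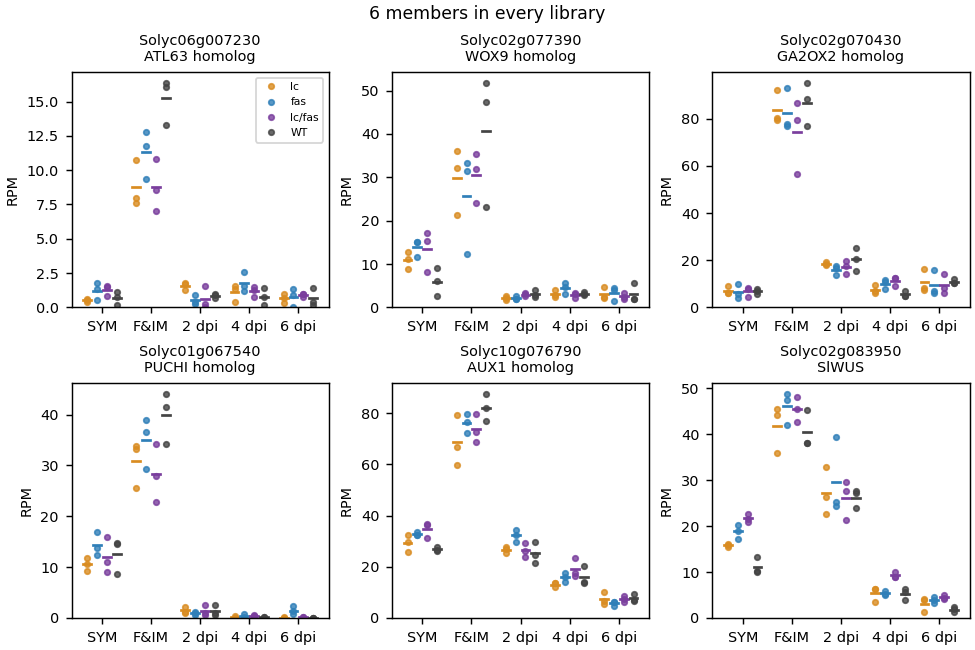
Points are the 3 libraries of a group, short lines their means, in RPM on a linear axis from 0, by stage and genotype (lc, fas, lc/fas, WT from left to right). The ATL63 homolog lay at 7.04 to 16.3 RPM in the F&IM and at no more than 2.60 RPM elsewhere, whereas SlWUS stayed at 21.3 to 39.5 RPM at 2 dpi.

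Other genes of the first 20 belong to several processes. Solyc05g009770 is homologous to the zinc-finger gene DOT5, Solyc10g055250 to the cold shock domain protein CSP4, Solyc12g005700 to VCC, which shapes cotyledon vein patterns, and Solyc01g005000 to the glutamate decarboxylase GAD4. Solyc05g007210 is homologous to KDR, a small atypical bHLH protein. Cell wall enzymes were represented by Solyc02g080200, homologous to a pectin methylesterase, and Solyc02g084800, homologous to the class III peroxidase PRX72, which acts in lignification. The other 8 (Solyc08g006860, Solyc02g093040, Solyc04g078460, Solyc09g005070, Solyc08g076850, Solyc01g080960, Solyc02g020920 and Solyc08g067510) had no homolog in the tables, apart from Solyc09g005070, whose homolog has no role given here. Of these, Solyc08g006860 declined to near zero, with F&IM means of 60.4 RPM in lc, 53.6 RPM in fas and 54.1 RPM in lc/fas, against 46.6 RPM in WT, and under 1 RPM at 6 dpi in every genotype. For 19 of the 20, the F&IM was called higher than each of the 4 other stages in each NIL. The exception was Solyc09g005070, whose F&IM libraries lay close to the SYM in fas (0.53 ± 0.34 on the log2 scale) and lc/fas (0.56 ± 0.35), with edgeR adjusted p = 0.525 and 0.553.

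The 4 members that belong to the lists of known tomato meristem and flower genes were SlWUS, S, LIN and Blind. SlWUS (Solyc02g083950), the stem cell regulator near which the lc allele lies, ranked 107. It had 44.3, 45.4 and 35.9 RPM in the lc F&IM, 48.8, 47.6 and 42.1 RPM in fas and 48.2, 45.6 and 42.7 RPM in lc/fas, against 45.4, 38.0 and 38.1 RPM in WT. In the F&IM the libraries of each NIL overlapped with those of WT. Its 2 dpi level was close behind, and within lc, fas and lc/fas the F&IM exceeded 2 dpi by 0.60 ± 0.17, 0.60 ± 0.17 and 0.76 ± 0.17 (log2, SE; edgeR adjusted p = 0.0253, 0.0242 and 0.00218). SYM libraries held 16.1, 16.0 and 15.5 RPM in lc, 18.9, 17.3 and 20.3 RPM in fas and 21.6, 21 and 22.6 RPM in lc/fas, against 10.3, 9.91 and 13.4 RPM in WT. Every NIL library of the SYM thus lay above every WT one for SlWUS, a description, since the WT libraries chose the members. The lc/fas libraries lay above those of both single NILs, but SlWUS was not called between NILs in the SYM (edgeR quasi-likelihood test).

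LIN (Solyc04g005320), a SEPALLATA-type MADS-box gene and homolog of SEP2 that acts with related genes on the branching of the tomato inflorescence, was low in the SYM. Its F&IM means were 62.4, 65.0 and 61.8 RPM in the NILs, against 70.6 RPM in WT. Its SYM means were 5.98, 7.42 and 7.41 RPM in the NILs, against 4.59 RPM in WT. At 2 dpi it still had 41.8, 42.01 and 42.1 RPM in the NILs and 38.5 RPM in WT. Blind (Solyc11g069030), the MYB factor that in tomato is needed to start side meristems, had its F&IM libraries at 216, 232 and 217 RPM in lc, 212, 206 and 195 RPM in fas and 191, 202 and 192 RPM in lc/fas, against 225, 250 and 221 RPM in WT. Its lc/fas libraries and its fas libraries all lay below those of lc and below those of WT, and they overlapped with one another. Blind was not called between NILs in the F&IM (edgeR quasi-likelihood test). The WT libraries chose the members, so the comparison with WT is a description.

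Among the other regulators, several are known from the border between an organ and the meristem or from the start of organs. The homolog of HAN (Solyc02g062760), a GATA factor of organ boundaries, averaged 56.1, 48.3 and 48.7 RPM in the F&IM of lc, fas and lc/fas, against 61.6 RPM in WT. The homolog of LSH3 (Solyc09g025280), another boundary gene, averaged 141, 144 and 136 RPM in the NILs, against 170 RPM in WT, and had dropped to 7.22 to 8.50 RPM at 6 dpi in the NILs. AIL6 (Solyc05g051380), an AP2-type gene of meristem and organ growth, averaged 124, 123 and 122 RPM in the NILs, against 111 RPM in WT. The homolog of ULT1 (Solyc07g054450), which in Arabidopsis ends floral meristem activity, averaged 59.7, 64.3 and 53.7 RPM in the NILs, against 73.8 RPM in WT. The homolog of SAP (Solyc05g041220), an F-box protein of flower development, averaged 177, 185 and 169 RPM in the NILs, against 186 RPM in WT.

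Polarity and style genes were present as well. The KAN2 homolog (Solyc06g066340), which specifies the lower side of organs, averaged 160, 160 and 147 RPM in the F&IM of the NILs, against 159 RPM in WT. A pair of genes homologous to STY1, a regulator of style growth and auxin synthesis, were among the 150: Solyc04g080970, with 66.1, 70.0 and 54.3 RPM in the NILs against 76.6 RPM in WT, and Solyc02g084680, with 51.1, 52.8 and 51.01 RPM against 54.6 RPM. A relative of that family, the LRP1 homolog Solyc11g064800, averaged 77.7, 75.6 and 61.6 RPM, against 86.9 RPM in WT. Of the 21 regulators, 18 within lc and 17 within each of fas and lc/fas were higher in the F&IM than at each of the 4 other stages.

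The hormone genes covered 5 hormones. Cytokinin was represented by synthesis and response genes. The homolog of IPT5 (Solyc01g080150), which makes the first step of cytokinin synthesis, had 5.56, 13.3 and 12.1 RPM in the lc F&IM, 14.7, 13.4 and 12.9 RPM in fas and 14.7, 9.88 and 16.2 RPM in lc/fas, against 9.68, 10.6 and 12.1 RPM in WT. The homolog of LOG7 (Solyc10g082020), which activates cytokinin, averaged 53.8, 59.6 and 49.96 RPM in the NILs, against 67.7 RPM in WT. Its SYM level was near that of the F&IM, and the difference was not called in any NIL (log2 0.33 ± 0.21, 0.53 ± 0.20 and 0.32 ± 0.20; adjusted p = 0.428, 0.142 and 0.556). Both genes homologous to the response regulator ARR17 were members; the better separated one, Solyc06g048930, averaged 23.9, 24.0 and 19.4 RPM, against 23.5 RPM in WT.

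For auxin, the response repressor homolog IAA4 (Solyc09g083280) was a member beside AUX1. BR6OX1 (Solyc02g089160), a late enzyme of brassinosteroid synthesis, averaged 262, 250 and 236 RPM in the F&IM of lc, fas and lc/fas, against 268 RPM in WT. LOX3 (Solyc03g122340), a lipoxygenase of jasmonate synthesis, had the highest wild-type F&IM mean of the 150, at 354 RPM, with 396, 355 and 404 RPM in the NILs. Of the 10 hormone genes, 6 in each NIL were higher in the F&IM than at every other stage. For the 7 genes of the cell wall and surface the counts were 4, 5 and 4, for the 5 of metabolism 4, 3 and 2, and for the 9 of signalling and transport 6, 5 and 3. Of the 98 genes without a role, 69, 61 and 49 met the same criterion.

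The stage profile was tested in the NILs, whose libraries did not enter the ranking. A single model of the 20 groups was fitted to 18901 genes with edgeR, and a gene was called at an adjusted p under 0.1. Here and below, the genes tested include many under the 10 RPM minimum set for members. The shares of all genes tested therefore compare genes of unlike level. Within lc, 126 members were higher in the F&IM than in the SYM (4.51% of all genes tested were), 121 than at 2 dpi (2.52%), 143 than at 4 dpi (13.5%) and 144 than at 6 dpi (18.1%). Within fas the counts were 110 against the SYM (3.51%), 122 against 2 dpi (2.76%), 144 against 4 dpi (15.3%) and 144 against 6 dpi (23.2%). Within lc/fas they were 103 against the SYM (3.16%), 116 against 2 dpi (2.28%), 135 against 4 dpi (8.43%) and 138 against 6 dpi (13.2%). In each of the 12 contrasts 147 to 150 of the 150 fitted differences were positive. Median log2 differences of the members were 1.07, 0.97, 1.45 and 1.57 in lc against the SYM, 2, 4 and 6 dpi. Within fas they were 0.96, 0.97, 1.35 and 1.55, and within lc/fas 0.86, 0.92, 1.25 and 1.34, while the medians of all genes tested lay between -0.01 and 0.01.

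**Figure D3:**
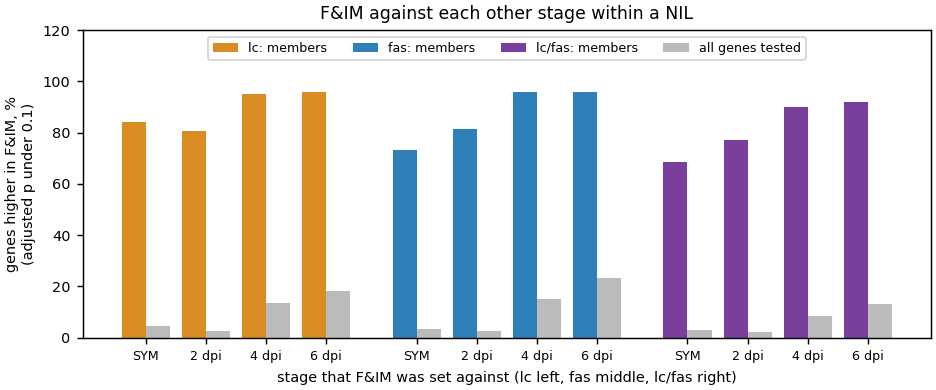
Bars give the percentage of the 150 members (coloured) and of all 18901 genes tested (grey) that were higher in the F&IM than at the stage named on the axis, at an adjusted p under 0.1, within lc, fas and lc/fas. Members reached 68.7 to 96.0% and all genes 2.28 to 23.2%.

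Counting genes above all 4 other stages at once, 107 members qualified in lc (0.921% of all genes tested). The count was 97 within fas (0.746%) and 81 within lc/fas (0.603%). In each of the 3 NILs together 73 members qualified, out of 86 genes in the whole table. The share fell with rank. Among ranks 1 to 50 the counts were 44, 42 and 42 in lc, fas and lc/fas, among ranks 51 to 100 they were 39, 34 and 29, and among ranks 101 to 150 they were 24, 21 and 10. Without a model, all 3 F&IM libraries lay above the 12 libraries of the other stages for 128 members in lc (3.39% of all genes tested), for 113 within fas (2.35%) and for 120 within lc/fas (2.32%). This held in all 3 NILs for 96 members and in none for 10. When the ranking rule was applied to each NIL instead of WT, 114, 109 and 108 of the 150 genes were chosen again with the lc, fas and lc/fas libraries.

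The fall away from the F&IM was shallower in the NILs than in WT on the SYM side, as a description. The median member stood in the SYM at 46.2, 50.5 and 54.9% of its F&IM mean in the lc, fas and lc/fas lines, against 44.5% in WT. At 2 dpi the medians were 50.8, 49.6 and 51.6% in the NILs, against 48.1% in WT, and at 6 dpi they were 32.2, 33.0 and 37.4%, against 30.2%. Because members were selected for a large fall in WT, a larger fall in WT was built into the list. Of the 60 genes next-highest in the SYM in WT, the SYM was still the next stage for 42, 53 and 54 in the lc, fas and lc/fas lines. Of the 63 next-highest at 2 dpi, 57, 43 and 45 kept 2 dpi. A group of 16 genes had a 6 dpi mean under 10% of the F&IM mean in all 4 genotypes, SlWUS and the AIL6 and LSH3 homologs among them.

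For a few members the F&IM mean was not the highest in every NIL. Because the WT libraries set the ranks, such changes were favoured by the choice of members. For 144 of the 150 the F&IM mean was the highest in all 3 NILs, for 4 it was not in a single NIL, for 1 in a pair of NILs and for 1 in all of them. The last is Solyc09g031760, without a homolog in the tables. Its F&IM libraries had 7.04, 5.56 and 2.41 RPM in lc, 13.8, 10.5 and 6.14 RPM in fas and 7.68, 8.98 and 5.31 RPM in lc/fas, against 14.9, 17.1 and 12.8 RPM in WT. The highest mean was at 2 dpi in lc (8.52 RPM) and fas (11.7 RPM) and at 4 dpi in lc/fas (10.4 RPM), and of the 12 contrasts with the F&IM, 1 was called, over 4 dpi in fas (1.02 ± 0.40, edgeR adjusted p = 0.0589). Its WT libraries at 2 and 6 dpi reached 14 and 15.2 RPM, so they overlapped with the WT F&IM as well.

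Solyc01g103250, also without a homolog, had a SYM mean above its F&IM mean in lc and fas. Its SYM libraries held 250, 384 and 309 RPM in lc, 185, 390 and 250 RPM in fas and 337, 312 and 279 RPM in lc/fas, against 259, 259 and 45.3 RPM in WT. One WT SYM library thus lay far below the 11 other SYM libraries. Its rank rested on the WT mean at 2 dpi, which was above the WT SYM mean with that library included. In fas only, the F&IM mean was below another stage for the homolog of the inositol oxygenase MIOX4 (Solyc12g008650). In lc/fas only, it was so for the homologs of a REM-type B3 factor (Solyc08g006200), ARR17 (Solyc06g048600) and the calcium sensor SOS3 (Solyc12g055920). The lc/fas ratios by the ranking rule were 0.957 for ARR17 and 0.996 for SOS3, which are near ties. For MIOX4, ARR17, SOS3 and Solyc01g103250 the F&IM libraries overlapped with other stages in WT already. For 137 of the 150 members there was no such overlap in WT. MIOX4 varied widely between replicates: in the F&IM it had 31.3, 3.62 and 13.1 RPM in lc, 17.0, 4.84 and 8.18 RPM in fas and 15.6, 2.02 and 21.3 RPM in lc/fas, against 25, 6.53 and 27.3 RPM in WT. Replicate 2 was the lowest in all 4 genotypes.

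The NILs were next compared with one another in the F&IM, where lc/fas over lc measures the fas allele in the presence of lc, and lc/fas over fas the lc allele in the presence of fas. No member was called in any of the 3 comparisons by the edgeR quasi-likelihood test or by DESeq2. Of all genes tested 0.037% were called for lc/fas over lc, 0.0159% for lc/fas over fas and 0.0317% for fas over lc. At an unadjusted p under 0.05 the count was 14 members for lc/fas over lc (9.33%, beside 2.75% of all genes tested), 2 for lc/fas over fas (1.33%, beside 1.77%) and 7 for fas over lc (4.67%, beside 2.52%). As above, the genes tested include many under the 10 RPM minimum set for members, so these shares compare genes of unlike level. The members' median log2 differences were -0.13, -0.09 and -0.05 in the same order, beside medians of -0.00, -0.01 and -0.00 for all genes tested, and 43, 35 and 65 of the 150 were higher in the NIL named first.

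Libraries of lc/fas lay wholly below those of lc in the F&IM for 30 members (5.22% of all genes tested) and wholly above for 1 (4.7%). They lay below those of fas for 14 members (5.53%) and above for 0 (2.17%). Libraries of fas lay below those of lc for 10 members (2.32%) and above for 8 (5.05%). In the SYM, lc/fas lay above lc for 17 members (5.23%) and below for 4 (2.75%), and fas lay above lc for 18 (6.26%) and below for 2 (2.45%). Between lc/fas and fas in the SYM there were 4 members above (2.47%) and 4 below (3.62%). By the edgeR test no member was called in the SYM for any of these pairs. Of all genes tested 0.0423% were called there for lc/fas over lc, 0.0265% for lc/fas over fas and 0.037% for fas over lc. The smallest p in the F&IM belonged to the bHLH113 homolog Solyc01g107490, with 77.2, 65.8 and 69.5 RPM in lc/fas and 111, 98.8 and 77.6 RPM in lc. Its difference was -0.45 ± 0.13 on the log2 scale (SE; edgeR quasi-likelihood test across all genes, adjusted p = 1.00). The next was the PRX72 homolog Solyc02g084800, with 25.4, 20.6 and 27.4 RPM in lc/fas and 48.3, 38.2 and 44.1 RPM in lc (-0.84 ± 0.26, edgeR adjusted p = 1.00). The lc/fas libraries of PRX72 lay below those of lc, and they overlapped with those of fas, at 29.0, 25.2 and 35.1 RPM.

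**Figure D4:**
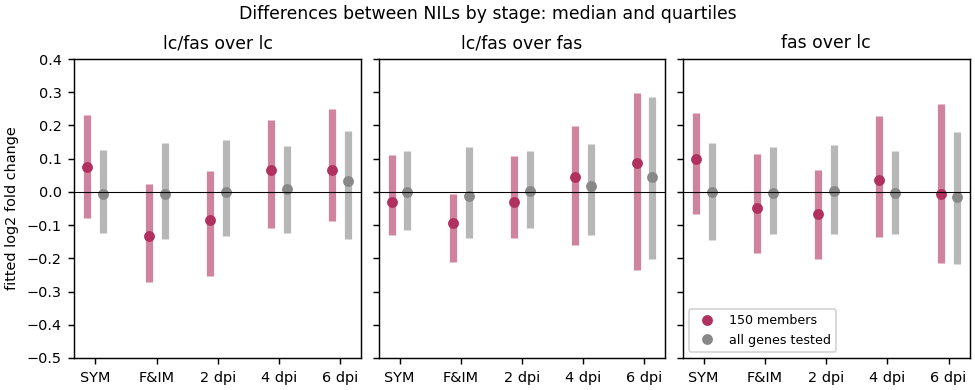
Points are medians and bars the quartiles of fitted log2 fold changes between NILs at each stage, over the 150 members (red) and over all 18901 genes tested (grey). In the F&IM the member medians were -0.13 for lc/fas over lc and -0.09 for lc/fas over fas.

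The difference between NILs in the F&IM was also set against their difference at the 4 other stages. No member was called for lc/fas over lc (0.00529% of all genes tested), lc/fas over fas (0%) or fas over lc (0%) by edgeR, and none by DESeq2. At an unadjusted p under 0.05 the counts were 8, 4 and 5 members (5.33, 2.67 and 3.33%), beside 2.06, 2.30 and 1.29% of all genes tested. The medians over the members were -0.18, -0.12 and -0.06 on the log2 scale. In the F&IM the members together took 0.797 to 0.846% of a library's counts in lc/fas, 0.830 to 0.905% in fas and 0.852 to 0.925% in lc, against 0.911 to 0.931% in WT. In the SYM they took 0.471 to 0.502% in lc/fas, 0.489 to 0.503% in fas and 0.444 to 0.468% in lc, against 0.429 to 0.455% in WT.

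Summed levels of marker genes were read beside this, because an F&IM piece can hold young organs. Floral organ identity genes (12 genes) summed to 251 to 343 RPM in the F&IM of lc/fas, 279 to 303 RPM in fas and 304 to 404 RPM in lc, against 285 to 343 RPM in WT. Organ boundary genes (4 genes, Blind among them) summed to 322 to 358 RPM in lc/fas, 305 to 333 RPM in fas and 370 to 391 RPM in lc, against 360 to 406 RPM in WT. Photosynthesis genes (4 genes) summed to 830 to 964 RPM in lc/fas, 820 to 1008 RPM in fas and 781 to 1011 RPM in lc, against 798 to 896 RPM in WT. The boundary sum was thus lower in lc/fas and fas than in lc, without overlap, but Blind, itself a member, made up much of it. The 3 other boundary genes summed to 130 to 165 RPM in lc/fas and 110 to 122 RPM in fas, against 139 to 174 RPM in lc, so that without Blind lc/fas overlapped with lc while fas still lay below. The organ identity sum, which includes the member LIN, was also lower in fas than in lc without overlap, by a narrow margin. In lc/fas the organ identity sum overlapped with lc. No tested gene of the boundary or organ identity list was called between NILs in the F&IM by edgeR. The part of dissection in these values was not tested.

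Over the 5 stages together, in a model of stage and genotype, 5 members were called for lc/fas over lc (0.926% of all genes tested). Higher in lc/fas were the IAA4 homolog Solyc09g083280 (0.30 ± 0.07 on the log2 scale, SE, adjusted p = 0.0139), Solyc01g104010 (0.49 ± 0.12, adjusted p = 0.0322) and Solyc02g092240 (0.31 ± 0.08, adjusted p = 0.0545). Lower were the homologs of KDR, Solyc05g007210 (-0.44 ± 0.12, adjusted p = 0.0515), and VCC, Solyc12g005700 (-0.48 ± 0.13, adjusted p = 0.0802). In the F&IM the KDR homolog had 20.9, 21.1 and 28.1 RPM in lc/fas, 36.7, 28.4 and 31.3 RPM in fas and 37.4, 31.4 and 30.7 RPM in lc, so its lc/fas libraries lay below those of both single NILs. The IAA4 homolog had 43.5, 55.7 and 35.9 RPM in lc/fas and 36.7, 35.3 and 43.8 RPM in lc, and overlapped there. In its SYM the IAA4 homolog had 24.4, 23.8 and 17.6 RPM in lc/fas and 17.2, 16.9 and 19.2 RPM in lc. All 5 calls treat the stages of a genotype and replicate number as separate samples: with counts summed over the stages 0 members were called, and with that grouping as a random block 0 were called. Without lc/fas replicate 3 there were 9 calls, without lc/fas replicate 1 or 2 there were 2, and without lc replicate 1 or 2 there were 2 and 3.

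**Figure D5:**
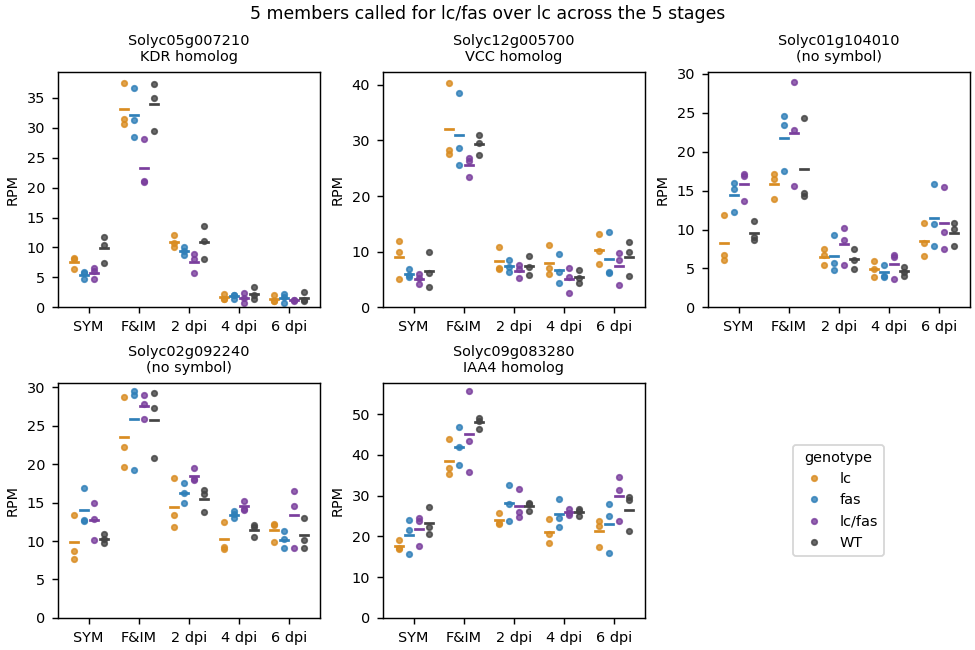
Points are the 3 libraries of a group and lines their means, in RPM on a linear axis from 0, for the 5 members called for lc/fas over lc across stages. The KDR homolog lay at 20.9 to 28.1 RPM in the lc/fas F&IM and at 30.7 to 37.4 RPM in lc.

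For lc/fas over fas, 0 members were called across the stages (0.127% of all genes tested), by edgeR and by DESeq2, with 12 at an unadjusted p under 0.05 (8.00%, beside 4.10% of all genes). For fas over lc, 0 were called by edgeR (1.79%) and 1 by DESeq2, with 19 at an unadjusted edgeR p under 0.05 (12.7%, beside 10.4% of all genes). The nearest to the threshold was the homolog of ABCG11 (Solyc01g105450), an exporter of cuticle lipids, at -0.32 ± 0.10. The fas over lc count reached 7 without fas replicate 3, 3 without lc replicate 1, 2 without fas replicate 1 or 2 and 1 without lc replicate 3, lc/fas replicate 1 or lc/fas replicate 2.

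Against WT, whose libraries chose the members, the values are a description. In the F&IM, 121 members had a lower mean in lc/fas than in WT, 106 in fas and 108 in lc. All 3 libraries lay below WT for 49 members in lc/fas (6.18% of all genes tested), 19 in fas (2.55%) and 15 in lc (3.24%), and all 3 above for 3 (5.04%), 7 (5.21%) and 3 (3.11%). The median log2 ratio of means was -0.21 in lc/fas, -0.10 in fas and -0.08 in lc. Because the rule asked for a high F&IM level in WT, a lower level in the NILs was favoured by the choice of members, and no test against WT is given.

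The members lie on all 12 chromosomes, and 2 are on unplaced sequence. Chromosome 2 holds 29, or 19.3% of the members, while 10.5% of the genes above the minimum level lie there, and chromosome 1 holds 21. The study's list of differentially expressed genes covers 11 of the members, and among these it places only SlWUS in an introgressed segment. Whether the members outside that list lie in a segment was not tested. Consecutive identifiers occur in 5 pairs, among them both PRX72 homologs, Solyc02g084790 and Solyc02g084800, and LIN with Solyc04g005310. How the counting treated reads that match more than 1 copy is not stated in the methods or labels, so values of the PRX72, STY1 and ARR17 copies may share reads. At the edge of the list, the last members were Solyc03g063080, Solyc12g055920 and Solyc01g100710, all with a ratio of 1.42. The first genes outside were Solyc09g019980, Solyc08g076010 and Solyc01g065540, with ratios of 1.41. The list therefore has no gap at its end, and its lower part holds genes whose F&IM level exceeded the next stage by less than a factor of 1.5.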

How the data were processed

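The deposited values are whole counts per gene, without normalization, for 60 libraries. Per the methods, the authors trimmed reads using fqtrim and mapped them using Rsubread, with gene models of ITAG2.4; settings of the counting step are not stated there. An unnamed line was left out: in all 60 libraries it matches how many genes had 3 or more counts, and it reached at most 3.01% of a library. RPM was computed from the remaining totals, and version suffixes of gene identifiers were dropped. The test was that of edgeR 4.0.16 under R 4.3.3 (filterByExpr, TMM, quasi-likelihood with robust estimation, Benjamini-Hochberg over 18901 genes, threshold 0.1), with all 60 libraries in the model. DESeq2 1.42.0 and limma 3.58.1 served as alternatives. An edgeR fit of the 20 groups was tested on simulated counts, for F&IM over SYM within lc and for lc/fas over lc within the F&IM. Apart from planted changes, each simulated gene had the same expected share in every library, and libraries were independent. The simulation therefore does not tell how often a true difference between NILs would be missed in these data. Pairs of replicates differed beyond sampling noise (chi-square per degree of freedom of at least 2.65 over 60 pairs).

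The members, lists and tests were chosen with earlier results of these data known, and homolog groups after the members were known. Named genes were the first 20 in rank, members named by the study or on the lists, members called between NILs, members whose F&IM mean was not the highest in at least 2 NILs, and genes at the list's edge. All other named genes were chosen for their homologs or after their values were seen. The planned keyword classes and promoter motifs were not run, since the reference tables matched no identifier, and no sequence is shown. Replicates are separate samples by label. The lists of markers were stem cell and CLAVATA genes, inflorescence identity, organ identity, organ boundary, cell division and photosynthesis.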

Additional observations from a re-analysis of the deposited data

How the results depend on the processing

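The 12 counts of members higher in the F&IM kept within 1.5 times their value under all 20 alternatives (75 to 149 of 150), including DESeq2, DESeq2 size factors, total counts, other filters, an adjusted p under 0.05 and leaving out each replicate. No member was called between NILs in the F&IM, or for the difference from the other stages, under any of the 20. Of the list, 108 to 147 genes were chosen again with other pseudocounts, minimum levels or scalings, in another genotype, or without 1 WT replicate (126 to 132).

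For lc/fas over lc across stages (5 members), the count was 2 at an adjusted p under 0.05, 0 with counts summed over stages, 0 with limma-voom and a random block, 1 without the F&IM libraries, and 2 to 9 without 1 replicate. The cause was not tested, except that summing leaves 12 samples. For fas over lc (0 members), it was 1 with DESeq2, 1 with total counts, 1 without the smallest 6 dpi library, and 0 to 7 without 1 replicate. For lc/fas over fas it was 0 throughout.

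Samples with the same replicate number deviated together in part: correlations ran from -0.06 to 0.55 between stages of a NIL (all 3 above 0.1 in 7 of 12 pairs of groups) and from -0.18 to 0.57 between NILs (7 of 15). Within these pairs of groups, a library was closest to its own number in 63 of 72 and 75 of 90 cases. The same libraries recur among these cases. Closeness to the own number is a hint of pairing from the data, not from the design; since the labels tie the numbers to nothing shared and not every correlation exceeded 0.1, the fits without a block are the ones reported. With the replicate block, 118 to 149 members were higher in the F&IM, 5 were called for lc/fas over lc, 0 for lc/fas over fas and 5 for fas over lc across stages, and 0 between NILs in the F&IM. The smallest library, 0.441 in units of 1000000 counts, limits the levels at fas 6 dpi.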

Other observations

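The marker lists not shown above had the following sums in the F&IM. Stem cell and CLAVATA genes (10 genes) summed to 1576 to 1800 RPM in lc/fas, 1534 to 1783 RPM in fas and 1465 to 1749 RPM in lc, against 1474 to 1607 RPM in WT. Inflorescence identity genes (15 genes) summed to 2254 to 2451 RPM in lc/fas, 2260 to 2398 RPM in fas and 2199 to 2382 RPM in lc, against 2347 to 2475 RPM in WT. Cell division genes (7 genes) summed to 285 to 337 RPM in lc/fas, 272 to 313 RPM in fas and 290 to 370 RPM in lc, against 276 to 337 RPM in WT.

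Replicates differed in how often they held the lowest F&IM value of a member. In lc replicate 3 was the lowest for 74 of the 150, in fas replicate 3 for 62, in lc/fas replicate 2 for 72 and in WT replicate 3 for 57.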
